A study of Mus musculus with 15 samples.

Results

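Bacterial lipopolysaccharide (LPS) is sensed at the surface of a B cell by TLR4, which binds LPS through its partner MD-2, encoded by *Ly96*, after CD14 has handed the LPS over. B cells also carry RP105, encoded by *Cd180*, a relative of TLR4 that pairs with MD-1, encoded by *Ly86*, much as TLR4 pairs with MD-2. TLR2 reads bacterial lipoproteins at the surface, while TLR7 and TLR9 read single-stranded RNA and CpG DNA in endosomes, where UNC93B1 has to escort them. These Toll-like receptors signal through the adaptor MyD88. The 10 genes described here are *Tlr4*, *Ly96*, *Cd14*, *Cd180*, *Ly86*, *Tlr2*, *Tlr7*, *Tlr9*, *Myd88*, and *Unc93b1*, chosen by symbol from the 21669 genes with a symbol in the expression table. All 10 passed the filter on low values that left 11299 genes for testing, *Cd14* only through the libraries of naive B cells.

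RNA-seq of mouse B cells (C57BL/6J, female) was made in 5 groups of 3 deposited columns. Naive B cells (nB) were CD43- cells that had not been stimulated. Activated B cells (actB, sorted as B220+GL7+CD138-) and CD138+ plasmablasts (Pb) came from CD43- B cells cultured with LPS, IL2, and IL5, with either the EZH2 inhibitor GSK343 or its vehicle, DMSO. LPS, the TLR4 ligand, was thus present in all 4 cultured groups and absent from nB. The cultured groups were sorted by flow cytometry, while nB were purified magnetically. Stimulation, culture, sorting, and cell stage thus cannot be told apart between nB and the other groups. For Pb with GSK343 the labels name IL6 in place of IL5, and if they hold, GSK343 and the cytokine cannot be told apart in Pb. The genotype is wild type in every group.

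Between 19421830 and 26307413 reads were counted per library, and 3 reads, the most that a count of 0 allows, equal 0.114 to 0.154 RPM (reads per 1000000 reads counted). The columns of nB replicates 1 and 2 differed by far less than sampling noise, and were averaged and counted as 1 library, so that n is 2 for nB and 3 for every other group. Levels are given as RPKM (RPM per kilobase of deposited gene length), so that genes can be compared with each other. For some members that length differs, in either direction, from the summed exons annotated on the mouse build mm9. It was 3846 against 5556 bases for *Tlr4* and 1905 against 2576 for *Myd88*. The order of genes and the ratios between genes depend on the length used. Differences are log2 fold changes of RPKM + 0.25 with their standard errors (SE), and a gene was called higher or lower where limma's adjusted p over all 11299 genes was under 0.05. In bulk RNA, fewer cells that express a gene and less RNA per cell cannot be told apart. All levels are relative to the reads counted in a library, and amounts of RNA per cell are not known here.

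Sums of marker genes differed between the groups, and single markers did not all follow their sum. The 8 B cell markers summed to 3943 to 4015 RPKM in nB, 1936 to 2229 in actB with DMSO, and 935 to 954 in Pb with DMSO, and the 7 plasmablast markers to 248 to 261, 512 to 546, and 3141 to 3292 RPKM. From nB to actB, 3 of these 7 were called higher and 2 lower, with *Sdc1* at 5.17 and 0.665 RPKM. The 6 activated B cell markers summed to 96.5 to 97.3 RPKM in nB, 376 to 417 in actB with DMSO, and 296 to 324 in Pb with DMSO. From nB to actB, 4 of them were called higher and 1 lower, with *Bcl6* at 60.7 and 7.62 RPKM. *Mki67* was at 183 RPKM in actB and 282 in Pb with DMSO. Markers of other cell types also had reads in nB. The 14 myeloid markers measured summed to 255 to 312 RPKM in nB, led by *Lyz2* at 166 RPKM, against 10.2 to 12.2 in actB with DMSO and 5.10 to 6.59 in Pb with DMSO, where *S100a8*, *S100a9*, and *Elane* had no read in either group. Of the 10 that passed the filter, 7 did so only through nB, so these markers are given as levels. The 8 T or NK cell markers summed to 28.4 to 30.4 RPKM in nB and to under 1 RPKM in every cultured library, and 5 dendritic cell markers without *Flt3* to 38.9 to 48.1 RPKM in nB and to under 1 RPKM in every cultured library. *Flt3*, the other dendritic cell marker, was at 12.2 RPKM in nB, 38.5 to 64.6 in actB with DMSO, and 7.22 to 8.03 in Pb with DMSO. Myeloid cells are a main source of *Cd14*, *Tlr2*, and *Tlr4* transcripts, and the part of these cells in the nB levels was not tested.

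Sequence upstream of the start was matched for *Cd180*, *Ly86*, *Tlr2*, *Tlr9*, and *Myd88* in a table of mouse promoters from RefSeq (GRCm38.p6). The 250 bases before the start were searched on both strands for 4 motifs of factors that act in B cells and plasmablasts: the octamer ATTTGCAT, read by Oct-1 and Oct-2, the PU.1-type site GAGGAAGT, the Blimp-1 core GAAAGTG, and the interferon response element core GAAANNGAA, the last of which can overlap the Blimp-1 core. *Tlr9* held the octamer on the opposite strand, beginning 72 bases before the start, which 1.6% of 32851 promoters of this length also held. *Myd88* held the interferon response element core, beginning 40 bases before the start, as did 7.13% of promoters. The other windows held none of the 4, and the PU.1-type site and the Blimp-1 core occurred in 2.44% and 4.01% of all promoters. *Cd180* had 2 overlapping windows from 2 annotated starts, of which the first is shown. The sequences of *Tlr9*, *Ly86*, and *Cd180* are shown because these were the members with the largest fall from nB to Pb among genes with reads in every library, and that of *Myd88* because it held a motif. Capitals mark the matches, and each line runs 5′ to 3′ on the strand of the gene.
Tlr9 (chr9:106222348-106222597, plus strand): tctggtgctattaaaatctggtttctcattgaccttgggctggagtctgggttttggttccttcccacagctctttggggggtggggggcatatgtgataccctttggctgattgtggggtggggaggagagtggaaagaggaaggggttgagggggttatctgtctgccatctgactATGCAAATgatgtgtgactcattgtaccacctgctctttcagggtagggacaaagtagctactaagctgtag
Ly86 (chr13:37345095-37345344, plus strand): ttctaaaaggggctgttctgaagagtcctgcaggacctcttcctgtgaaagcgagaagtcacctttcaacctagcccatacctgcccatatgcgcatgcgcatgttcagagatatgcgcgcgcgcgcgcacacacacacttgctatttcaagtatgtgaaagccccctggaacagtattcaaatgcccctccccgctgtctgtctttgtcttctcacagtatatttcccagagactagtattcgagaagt
Cd180 (chr13:102693297-102693546, plus strand): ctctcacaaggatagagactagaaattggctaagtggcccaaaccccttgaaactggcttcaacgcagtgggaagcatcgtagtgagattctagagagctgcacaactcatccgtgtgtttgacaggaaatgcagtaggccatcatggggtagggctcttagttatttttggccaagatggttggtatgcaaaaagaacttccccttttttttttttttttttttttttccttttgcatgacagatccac
Myd88 (chr9:119340019-119340268, minus strand): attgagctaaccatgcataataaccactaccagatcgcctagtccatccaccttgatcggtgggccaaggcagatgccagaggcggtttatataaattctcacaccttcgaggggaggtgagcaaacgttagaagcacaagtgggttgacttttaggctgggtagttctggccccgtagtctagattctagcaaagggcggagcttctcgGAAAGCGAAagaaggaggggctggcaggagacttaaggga

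In nB, the most abundant of the 10 transcripts per length were *Unc93b1* (234 RPKM), *Ly86* (219), and *Cd180* (129), followed by *Tlr9* (61.0), *Myd88* (26.2), and *Tlr7* (26.0), whose libraries overlapped with those of *Myd88*. The LPS receptor itself stood low, with *Tlr4* at 9.0, *Ly96* at 6.29, and *Cd14* at 2.41 RPKM, beside *Tlr2* at 6.96. In Pb with DMSO the order was another. *Unc93b1* (79.9 RPKM) and *Tlr7* (60.1) led, with overlapping libraries, and *Ly96* (17.0) lay above *Cd180* (13.5), *Tlr4* (5.52), *Tlr2* (5.43), and *Tlr9* (1.32).

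**Figure D1:**
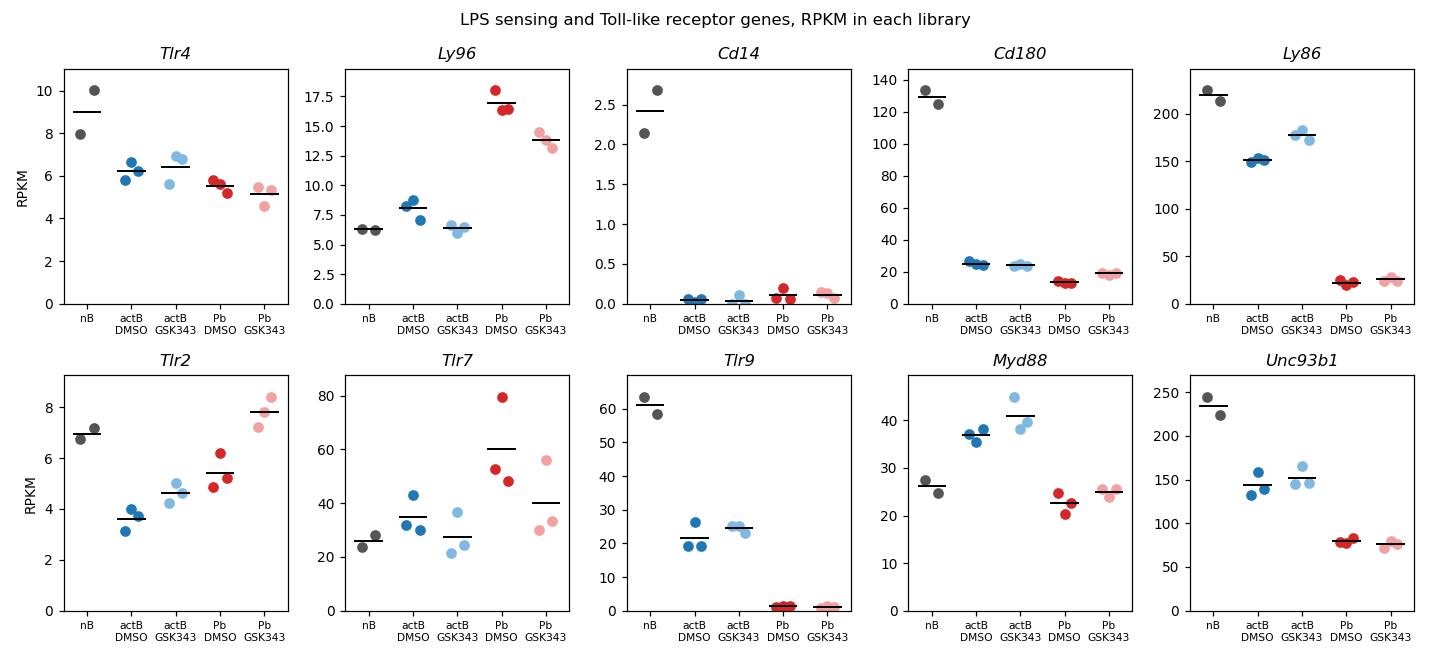
RPKM (vertical axes, linear from 0) of the 10 genes in each library of the 5 groups, with points for libraries and bars for group means (n = 2 for nB, where the repeated library is averaged, and n = 3 otherwise). *Tlr9*, *Cd180*, and *Ly86* were near the floor of their range in Pb, where *Ly96* and *Tlr7* had their highest means.

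*Cd14* passed the filter only through nB and so had to be lower in culture, and it is left out of the counts and medians that follow. From nB to actB with DMSO, 2 of the other 9 members were higher and 6 lower, where 40.9% of all genes tested were higher and 36.3% lower. From actB to Pb with DMSO, 3 members were higher and 5 lower, where 27.3% of all genes were higher and 42.4% lower, and from nB to Pb 2 were higher and 7 lower, where the shares were 39.5% and 41.1%. Without the 346 genes that, like *Cd14*, passed only through nB, the shares of lower genes were 34.3%, 43.2%, and 39.3%. The median log2 fold change of the 9 members was -0.54, -0.71, and -0.67 in these comparisons, beside 0.08, -0.12, and 0.015 for all genes under the same restriction. With each library scaled to a common median, 3813 genes were higher and 3899 lower in Pb than in actB, against 3086 and 4791 as deposited. No call among the members changed its direction under any scaling tried. The comparisons share libraries, so their values stand side by side and are not independent.

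**Figure D2:**
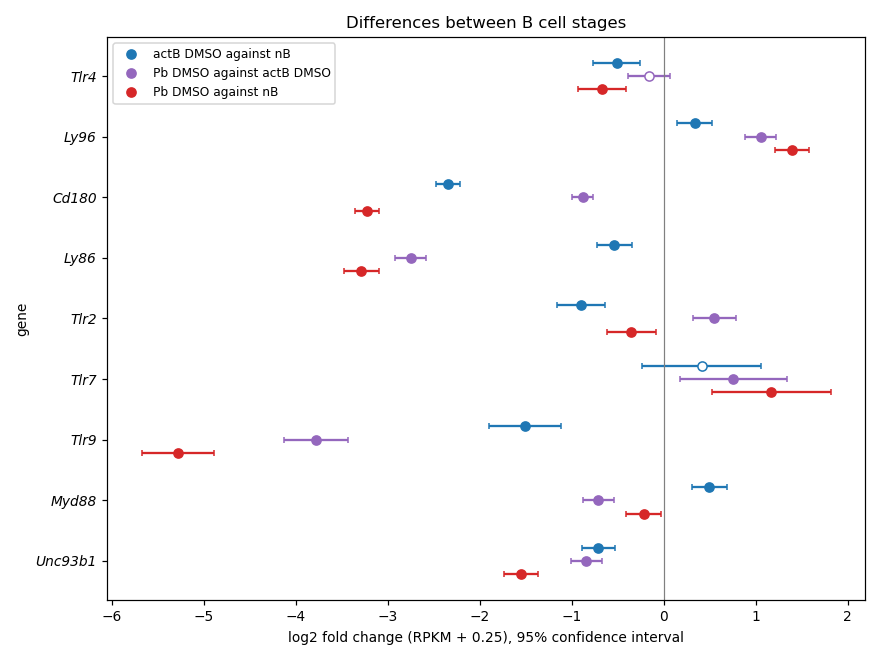
Log2 fold change of RPKM + 0.25 (horizontal axis) with its 95% confidence interval from limma for 9 members (vertical axis; *Cd14* is left out because its cultured libraries hold 0 to 6 reads), with filled points for called and open points for uncalled differences. *Ly96* lay to the right of 0 in all 3 comparisons, while *Tlr4*, *Cd180*, *Ly86*, *Tlr9*, and *Unc93b1* lay to the left in all 3, with *Tlr4* uncalled between Pb and actB.

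*Tlr4* (Entrez 21898, mm9 chromosome 4, 66488618 to 66591318, plus strand) had 7.97 RPKM in the averaged nB library and 10.03 in nB replicate 3. With DMSO, its 3 actB libraries had 5.79, 6.63, and 6.20 RPKM and its 3 Pb libraries 5.79, 5.60, and 5.17. Both nB libraries lay above all cultured ones, while actB and Pb overlapped. *Tlr4* was lower in actB than in nB by a log2 fold change of -0.51 (SE 0.119, limma adjusted p = 0.00167) and lower in Pb than in nB by -0.67 (SE 0.119, adjusted p = 1.77e-04). Between Pb and actB the difference of -0.16 was not called (95% interval -0.39 to 0.07, adjusted p = 0.192).

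*Ly96* (Entrez 17087, mm9 chromosome 1, 16678537 to 16699686, plus strand), which encodes the LPS-binding partner of TLR4, moved the other way. It had 6.34 and 6.25 RPKM in nB, 8.29, 8.74, and 7.11 in actB with DMSO, and 18.0, 16.4, and 16.4 in Pb with DMSO, and the 3 groups did not overlap. It was higher in actB than in nB by 0.34 (SE 0.087, adjusted p = 0.00325), in Pb than in actB by 1.06 (SE 0.077, adjusted p = 9.99e-08), and in Pb than in nB by 1.39 (SE 0.087, adjusted p = 8.24e-09). The first of these was not called with edgeR and RLE factors on the recovered reads (0.27, adjusted p = 0.0564), and the gene has only 97 to 143 reads per library in nB and in actB with DMSO. Within each library the ratio of *Ly96* to *Tlr4* was 0.709 ± 0.122 (SD, n = 2) in nB, 1.299 ± 0.144 (n = 3) in actB, and 3.07 ± 0.132 (n = 3) in Pb. The ratio did not overlap between actB and Pb, with a log2 difference of 1.25 (exact permutation test, two-sided p = 0.1, the smallest that 3 libraries against 3 allow).

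*Cd14* (Entrez 12475), which encodes the LPS carrier of myeloid cells, was close to the limit of detection in culture. It had 74 reads in the averaged nB library and 92 in nB replicate 3, or 2.15 and 2.68 RPKM, against 1 to 2 reads in the actB libraries and 2 to 6 in the Pb libraries with DMSO. Per read counted, nB held 52.1 times the *Cd14* reads of actB (95% exact interval 21.9 to 162) and 21.9 times those of Pb (11.6 to 46.6), where the intervals cover counting error only. *Cd14* was tested only because of its level in nB, so no test against nB is given, and between Pb and actB its difference was not called (adjusted p = 0.220). The summed myeloid markers, given above, were also highest in nB.

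*Cd180* (Entrez 17079, mm9 chromosome 13, 103483638 to 103529709, plus strand), the TLR4-like receptor RP105, had its larger fall in relative level at activation. It had 134 and 125 RPKM in nB, 26.5, 24.7, and 24.3 in actB with DMSO, and 14.3, 13.3, and 13.1 in Pb with DMSO, without overlap. The log2 fold change was -2.35 from nB to actB (SE 0.060, adjusted p = 5.66e-12) and -0.88 from actB to Pb (SE 0.053, adjusted p = 1.71e-08), or -3.23 from nB to Pb (SE 0.060, adjusted p = 2.52e-13). In the mm9 annotation, 182 bases of its exons overlap *Mast4* exons of the opposite strand. No source used here says whether strand entered the counting, so reads from the shared bases could belong to either gene. *Mast4* was at 5.60, 2.72, and 7.89 RPKM in nB, actB, and Pb, and was thus higher in Pb than in actB (1.45, adjusted p = 2.78e-09), where *Cd180* was lower.

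*Ly86* (Entrez 17084, mm9 chromosome 13, 37437214 to 37510905, plus strand), which encodes the MD-1 partner of RP105, had its larger fall in relative level at the later step. It had 225 and 214 RPKM in nB, 149, 154, and 151 in actB with DMSO, and 24.6, 19.9, and 22.5 in Pb with DMSO. It was lower in actB than in nB by -0.54 (SE 0.086, adjusted p = 9.32e-05), in Pb than in actB by -2.75 (SE 0.077, adjusted p = 4.37e-11), and in Pb than in nB by -3.29 (SE 0.086, adjusted p = 2.93e-12). The ratio of *Ly86* to *Cd180* was 1.70 ± 0.0191 (SD, n = 2) in nB, 6.02 ± 0.342 (n = 3) in actB, and 1.65 ± 0.126 (n = 3) in Pb. Its log2 difference between Pb and actB was -1.87 (exact permutation test, two-sided p = 0.1, the smallest possible).

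**Figure D3:**
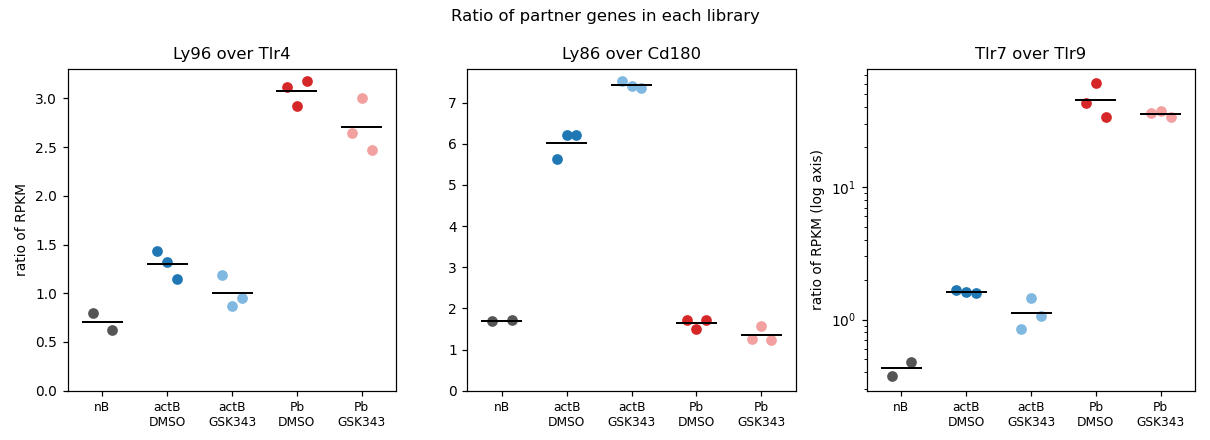
Ratio of the RPKM of partner genes in each library of the 5 groups (points; bars are group means), on linear axes from 0 for *Ly96* over *Tlr4* and *Ly86* over *Cd180* and on a log axis for *Tlr7* over *Tlr9*. The ratio of *Ly86* to *Cd180* peaked in actB, and the other ratios were highest in Pb.

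*Tlr2* (Entrez 24088, mm9 chromosome 3, 83640195 to 83645689, minus strand) fell at activation and was higher again in Pb. It had 6.75 and 7.17 RPKM in nB, 3.12, 4.01, and 3.74 in actB with DMSO, and 4.88, 6.20, and 5.20 in Pb with DMSO, and no group overlapped with another. The log2 fold change was -0.90 from nB to actB (SE 0.121, adjusted p = 1.84e-05) and 0.55 from actB to Pb (SE 0.108, adjusted p = 5.70e-04). From nB to Pb it was -0.35 (SE 0.121, adjusted p = 0.0171), a call that was lost without nB replicate 3 (adjusted p = 0.1015) and without Pb DMSO replicate 1 (0.0640).

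The endosomal receptors went in opposite directions. *Tlr9* (Entrez 81897, mm9 chromosome 9, 106124929 to 106129207, plus strand), the CpG DNA receptor, had 63.5 and 58.6 RPKM in nB, 19.1, 26.5, and 19.1 in actB with DMSO, and 1.23, 1.31, and 1.43 in Pb with DMSO, the last from 83 to 103 reads per library. Its log2 fold change was -1.51 from nB to actB (SE 0.180, adjusted p = 6.74e-06), -3.78 from actB to Pb (SE 0.161, adjusted p = 8.25e-10), and -5.29 from nB to Pb (SE 0.180, adjusted p = 2.69e-11), which is 39.0-fold lower on this scale and the largest change of any member with more than 10 reads in every library.

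*Tlr7* (Entrez 170743, mm9 chromosome X, 163742861 to 163768490, minus strand), the receptor for single-stranded RNA, had 23.8 and 28.2 RPKM in nB, 31.8, 42.9, and 30.1 in actB with DMSO, and 52.6, 79.6, and 48.1 in Pb with DMSO. Replicate 2 had the highest *Tlr7* level in all 4 cultured groups, at 1.39 to 1.77 times the mean of replicates 1 and 3. The difference from nB to actB was 0.41 (SE 0.297, adjusted p = 0.221) and was not called, with or without the replicate number as a block (0.19, adjusted p = 0.0767 with it). The block counts the averaged nB library as number 1, although its columns carry numbers 1 and 2. The difference was called without replicate 2 of every cultured group (0.26, adjusted p = 0.0325). From actB to Pb *Tlr7* was higher by 0.76 (SE 0.265, adjusted p = 0.0223), and the ratio of Pb to actB within the same number was 1.65, 1.85, and 1.60. That call was lost without actB DMSO replicate 1 (adjusted p = 0.0641), actB DMSO replicate 3 (0.0747), or Pb DMSO replicate 2 (0.103). From nB to Pb the gene was higher by 1.17 (SE 0.297, adjusted p = 0.00282). The ratio of *Tlr7* to *Tlr9* was 0.428 ± 0.0749 (SD, n = 2) in nB, 1.62 ± 0.0440 (n = 3) in actB, and 45.7 ± 13.7 (n = 3) in Pb, with a log2 difference of 4.78 between Pb and actB (exact permutation test, two-sided p = 0.1, the smallest possible).

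*Unc93b1* (Entrez 54445, mm9 chromosome 19, 3935186 to 3949340, plus strand), the escort of the endosomal receptors, fell at both steps. It had 245 and 224 RPKM in nB, 132, 159, and 139 in actB with DMSO, and 78.9, 77.2, and 83.4 in Pb with DMSO. The log2 fold change was -0.71 to actB (SE 0.084, adjusted p = 6.10e-06), -0.84 from actB to Pb (SE 0.075, adjusted p = 6.33e-07), and -1.55 from nB to Pb (SE 0.084, adjusted p = 2.15e-09), and the 3 groups did not overlap. *Tlr7* was thus higher in Pb than in nB, and its escort lower.

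*Myd88* (Entrez 17874, mm9 chromosome 9, 119245052 to 119250529, minus strand), the shared adaptor, was highest in actB. It had 27.6 and 24.8 RPKM in nB, 37.2, 35.5, and 38.2 in actB with DMSO, and 24.7, 20.4, and 22.6 in Pb with DMSO. It was higher in actB than in nB by 0.49 (SE 0.087, adjusted p = 1.94e-04) and lower in Pb than in actB by -0.71 (SE 0.078, adjusted p = 4.06e-06). The difference from nB to Pb of -0.22 (SE 0.087, adjusted p = 0.0357) was small, and its call was lost without the averaged nB library (adjusted p = 0.257), Pb DMSO replicate 2 (0.1325), or Pb DMSO replicate 3 (0.0635), and also under median scaling (0.0693), with edgeR and RLE factors (0.0610), and with the compared groups alone (0.0633). Without replicate 2 of every cultured group, the difference from nB to Pb was -0.15 and also not called (adjusted p = 0.0930). The exons of *Myd88* overlap 67 bases of *Acaa1a* exons on the other strand, and *Acaa1a* was lower in actB than in nB (-0.53, adjusted p = 5.24e-04).

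GSK343 differences were called for few members. In actB, 0 members were higher and 1 lower, where 8.2% of all genes tested were higher and 2.16% lower, and in Pb 2 members were higher and 1 lower, where 7.9% were higher and 5% lower. At an unadjusted p under 0.05 there were 3 members in actB and 5 in Pb, beside 25% and 26.9% of all genes. The median log2 fold change of the 9 members other than *Cd14* was 0.085 in actB and -0.072 in Pb. For all genes, without those that passed only through nB, it was 0.027 and 0.003. Of all genes called in actB, 79.1% were higher as deposited, 65.1% with median scaling, and 61.6% with quantile normalization. With the replicate number as a block, 3 members were called in actB and 5 in Pb, beside 21.4% and 24.6% of all genes. In Pb, 4 of the 8 B cell markers were called lower with GSK343 and 0 higher. Mean *Pax5* was 29.1 RPKM with DMSO and 13.8 with GSK343. Of the 7 plasmablast markers, 1 was called higher and 1 lower. Mean *Sdc1* was 29.7 and 55.3 RPKM, and *Irf4* 372 and 313. In actB, 1 B cell marker was called lower and 0 higher. The part of these marker differences in the values of the members was not tested.

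**Figure D4:**
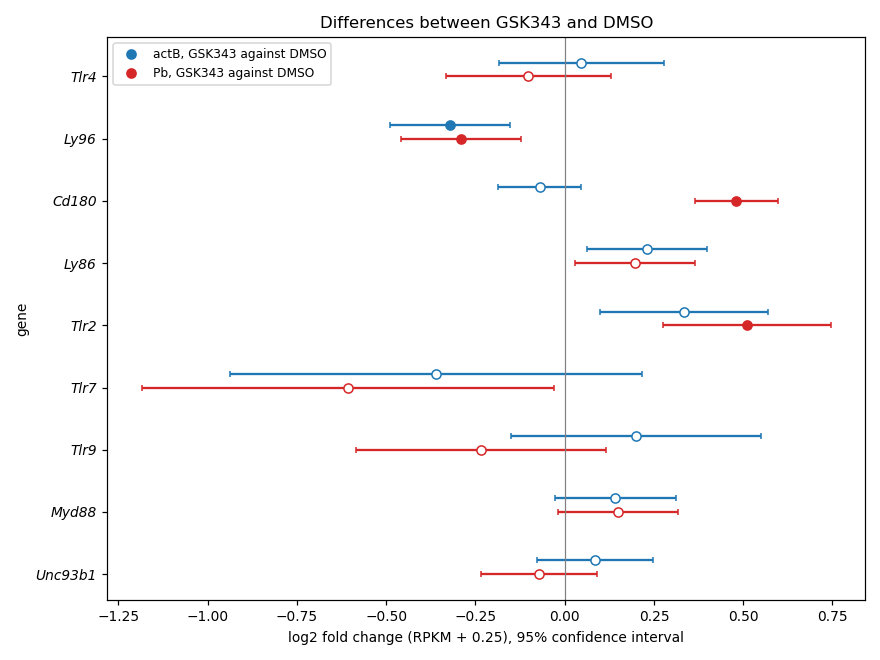
Log2 fold change of RPKM + 0.25 between GSK343 and DMSO (horizontal axis) with its 95% confidence interval from limma for 9 members (vertical axis; *Cd14* is left out for its 0 to 6 reads), in actB (blue) and Pb (red), with filled points for called and open points for uncalled differences. *Cd180* stood at -0.07 in actB and at 0.48 in Pb, and *Ly96* lay below 0 in both.

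*Cd180* had the largest GSK343 effect relative to its error. In Pb its level was 14.3, 13.3, and 13.1 RPKM with DMSO and 19.3, 18.2, and 19.5 with GSK343, without overlap, a log2 fold change of 0.48 (SE 0.053, limma adjusted p = 2.57e-04). In actB it was 26.5, 24.7, and 24.3 RPKM with DMSO and 23.7, 24.7, and 23.4 with GSK343, a change of -0.07 that was not called (95% interval -0.19 to 0.05, adjusted p = 0.470). The difference of the effects, tested as an interaction term, was 0.55 (SE 0.075, adjusted p = 0.0279), and was called for 0.248% of all genes. With the replicate block its adjusted p was 0.00514. The interaction stayed under 0.05 when actB DMSO replicate 2, actB GSK343 replicate 2, Pb DMSO replicate 1, or Pb GSK343 replicate 2 was left out, and without each of the other 8 cultured libraries (replicates 1 and 3 of both actB groups, replicates 2 and 3 of Pb with DMSO, and replicates 1 and 3 of Pb with GSK343) its adjusted p was 0.0554 to 0.105, at a difference of 0.51 to 0.58. *Mast4*, which overlaps on the other strand, was higher with GSK343 in actB (0.30, adjusted p = 0.0197) and differed by 0.18 in Pb (adjusted p = 0.129). No other member had a called interaction. The partner *Ly86* was at 24.6, 19.9, and 22.5 RPKM in Pb with DMSO and 24.3, 28.6, and 24.0 with GSK343, which was not called (0.20, 95% interval 0.03 to 0.36, adjusted p = 0.122). In actB it was at 149, 154, and 151 RPKM with DMSO and 178, 183, and 172 with GSK343, and this difference of 0.23 was not called although the libraries did not overlap (adjusted p = 0.0792). It was called without replicate 2 of every cultured group (0.22, adjusted p = 0.0200).

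*Ly96* was lower with GSK343 in both cell types. In actB it was at 8.29, 8.74, and 7.11 RPKM with DMSO and 6.67, 5.98, and 6.46 with GSK343 (-0.32, SE 0.077, adjusted p = 0.0212), and in Pb at 18.0, 16.4, and 16.4 with DMSO and 14.5, 13.8, and 13.1 with GSK343 (-0.29, SE 0.077, adjusted p = 0.0281). Neither pair of groups overlapped. The call in actB was lost without actB DMSO replicate 1 (adjusted p = 0.0793) or 2 (0.0545), without actB GSK343 replicate 2 (0.0591) or 3 (0.0567), and with the compared groups alone (0.131). It was also lost without replicate 2 of every cultured group (-0.22, adjusted p = 0.122). In Pb it was lost without Pb DMSO replicate 1 (0.113) or 3 (0.0570), without Pb GSK343 replicate 2 (0.0637) or 3 (0.116), and with edgeR (0.0645 with TMM factors). *Tlr4*, its partner, was not called in either cell type. Its log2 fold change was 0.05 in actB (95% interval -0.18 to 0.28) and -0.10 in Pb (-0.33 to 0.13).

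*Tlr2* was higher with GSK343 in Pb, at 4.88, 6.20, and 5.20 RPKM with DMSO and 7.23, 7.81, and 8.40 with GSK343 (0.51, SE 0.108, adjusted p = 0.01005), a call that was just lost without Pb GSK343 replicate 3 (adjusted p = 0.0505). In actB it was at 3.12, 4.01, and 3.74 RPKM with DMSO and 4.22, 5.01, and 4.63 with GSK343, which was not called (0.33, SE 0.108, adjusted p = 0.06995) unless actB DMSO replicate 2 was left out (0.0414), all 15 columns were fitted (0.0492), or the replicate number was used as a block (0.00617). *Tlr2* was higher with GSK343 in all 6 pairs of libraries of the same number, at 124% to 162% of DMSO. The myeloid markers summed to 14.4 to 20.2 RPKM in actB with GSK343 against 10.2 to 12.2 with DMSO, and to 4.72 to 5.70 in Pb with GSK343 against 5.10 to 6.59. The higher sum in actB came mainly from 1 marker, *Itgam*, whose mean rose from 4.27 RPKM under DMSO to 9.95 under GSK343. Mean *Cd68* fell from 6.12 to 5.44 RPKM between the same groups, a difference that was not called. *Lyz2*, the next most abundant, had means of 0.422 and 0.772 RPKM, and *S100a8*, *S100a9*, and *Elane* had no read in either. *Adgre1* had 0.147 and 0.437 RPKM and *Ccr2* 0.0428 and 0.169, while *Fcgr1*, *Mpo*, and *Clec7a* had slightly lower means with GSK343. Of the 10 myeloid markers tested, 2 were called higher with GSK343 in actB and 0 lower. The part of myeloid cells in the *Tlr2* levels was not tested.

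*Tlr7* was lower with GSK343 within every pair of the same number, and was called with the replicate block but not without it. In actB its 3 libraries with DMSO had 31.8, 42.9, and 30.1 RPKM and those with GSK343 21.4, 36.8, and 24.5, which is 67.2%, 85.8%, and 81.4% of DMSO by number. In Pb they had 52.6, 79.6, and 48.1 RPKM with DMSO and 30.1, 56.2, and 33.4 with GSK343, or 57.3%, 70.6%, and 69.5%. The log2 fold change was -0.36 in actB (SE 0.265, adjusted p = 0.457) and -0.61 in Pb (SE 0.265, adjusted p = 0.165) without the block, and with the block these values had an SE of 0.082 and adjusted p-values of 0.0108 and 5.29e-04. Without Pb GSK343 replicate 2 the difference in Pb was called (-0.88, adjusted p = 0.0430), and without replicate 2 of every cultured group it was called in actB (-0.43, adjusted p = 0.0186) and in Pb (-0.66, adjusted p = 0.00227). The interaction term was not called (-0.25, SE 0.375, adjusted p = 0.970), and its 95% interval ran from -1.06 to 0.57.

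**Figure D5:**
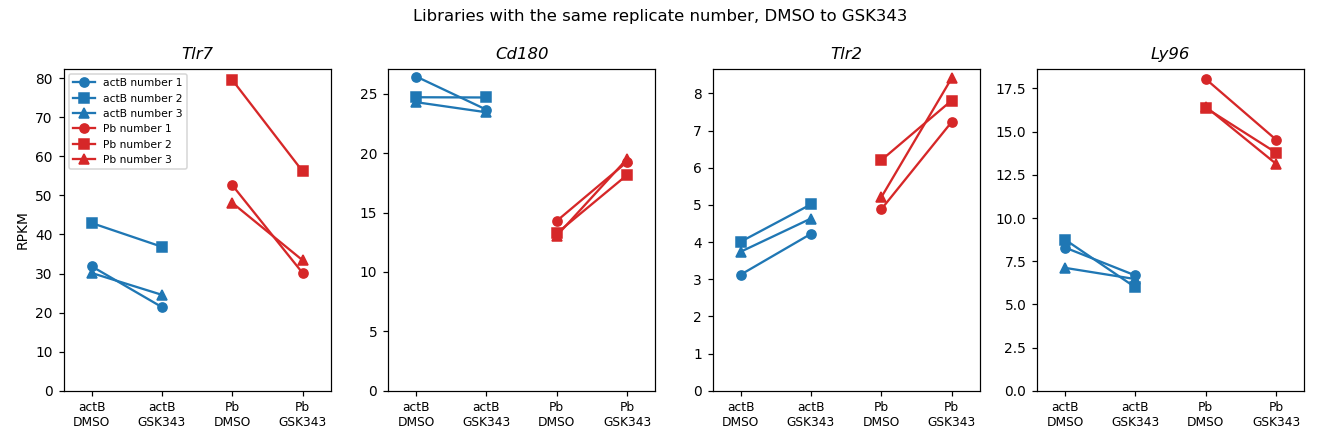
RPKM (vertical axes, linear from 0) of *Tlr7*, *Cd180*, *Tlr2*, and *Ly96* with DMSO and with GSK343, in actB (blue) and Pb (red), with a line for each pair of libraries that share a replicate number (circles, squares, and triangles for numbers 1, 2, and 3). All 6 lines fell for *Tlr7* and *Ly96* and rose for *Tlr2*, and those of *Cd180* rose in Pb.

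The remaining members were not called with GSK343 when all libraries were used. *Tlr9* was at 19.1, 26.5, and 19.1 RPKM in actB with DMSO and 25.2, 25.2, and 23.2 with GSK343 (0.20, adjusted p = 0.508), and at 1.23, 1.31, and 1.43 in Pb with DMSO and 0.833, 1.51, and 0.994 with GSK343 (-0.24, adjusted p = 0.394). Without replicate 2 of every cultured group *Tlr9* was called higher in actB (0.33, adjusted p = 0.0414) and lower in Pb (-0.44, adjusted p = 0.0117), with a called interaction (-0.77, adjusted p = 0.0310). *Myd88* differed by 0.14 in actB (adjusted p = 0.290) and 0.15 in Pb (adjusted p = 0.248, or 0.0450 with the replicate block, which calls it), and *Unc93b1* by 0.09 (adjusted p = 0.550) and -0.07 (adjusted p = 0.601). *Cd14* had 0 to 4 reads in actB and 2 to 6 in Pb, which gives no usable comparison at this depth.

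Across the 5 group means, the genes whose profile lay closest to that of a member were sought among 4285 tested genes with at least 5 RPKM in a group and a range of at least 1 on the log2 scale, by the root mean square difference of centred log2 values. For *Tlr9* these were *Ciita* (0.134), the regulator of MHC class II genes, *Ms4a4c* (0.153), and *B3gnt5* (0.187). *Ciita* was at 66.8 RPKM in nB, 24.2 in actB, and 1.90 in Pb with DMSO. For *Cd180* they were *Hopx* (0.0909), *Ets1* (0.142), a transcription factor that restrains plasma cell formation, and *Fam105a* (0.149), with *Ets1* at 222, 44.6, and 29.9 RPKM. For *Tlr7* they were *Cep170b* (0.0804), *Kansl1l* (0.132), and *Usp28* (0.141), and for *Tlr4* *Inpp5k* (0.0855), *Mtmr12* (0.0921), and *Ttc5* (0.0963). *Tlr4* itself ranged by only 0.775, less than the candidates had to, so flatter genes were not compared with it. These are descriptions over 5 means with no test.

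Among the other genes of the pathway, 55 in 6 lists, 50 passed the filter, 4 of them (*Tlr3*, *Tlr11*, *Tlr13*, and *Rab7b*) only through nB. Of the other 46, 12 (26.1%) were higher and 25 (54.3%) lower from nB to actB, and 15 (32.6%) higher and 23 (50%) lower from actB to Pb. From nB to Pb, 14 (30.4%) were higher and 25 (54.3%) lower. The median log2 fold changes were -0.32, -0.20, and -0.26. For all genes, without those that passed only through nB, the shares higher and lower were 42.2% and 34.3% from nB to actB. They were 28% and 43.2% from actB to Pb, and 40.7% and 39.3% from nB to Pb. The medians for all genes were 0.08, -0.12, and 0.015. These shares also stand beside the counts of each list below. Among these 46, the genes named for their change from nB to Pb were *Hsp90b1* (3.12), *Cd36* (2.33), *Tirap* (1.55), *Ticam1* (1.36), *Lgmn* (0.79), and *Scarb1* (0.64) on the higher side, and *Tlr1* (-4.72), *Pik3ap1* (-2.82), *Atf3* (-2.78), *Cnpy3* (-2.50), *Sigirr* (-2.30), *Ikbkb* (-1.77), *Irf5* (-1.71), and *Irf3* (-0.80) on the lower, and each is described with its list.

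Of 8 other Toll-like receptors, 6 were tested, 3 of which (*Tlr1*, *Tlr6*, and *Tlr12*) did not pass through nB alone. Of these 3, 2 were lower in actB than in nB, and all 3 were lower in Pb than in actB and in Pb than in nB. *Tlr1*, which pairs with TLR2, went from 98.9 RPKM in nB to 44.7 in actB and 3.52 in Pb with DMSO (-3.58 from actB to Pb, SE 0.200, adjusted p = 8.76e-09), and was also lower with GSK343 in Pb (-0.69, SE 0.200, adjusted p = 0.0410). *Tlr12* was at 2.57, 3.48, and 0.203 RPKM (-2.92 from actB to Pb, adjusted p = 6.90e-06). *Tlr3*, *Tlr11*, and *Tlr13*, which passed only through nB, were at 3.12, 3.01, and 3.92 RPKM there, and at 0.474, 0, and 0.0207 in actB with DMSO. The myeloid markers were also highest in nB, and their part was not tested.

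Of the proteins that handle LPS outside the receptor, all 3 tested were higher in actB and in Pb than in nB. *Cd36*, a scavenger receptor, went from 21.9 RPKM in nB to 110.2 in actB and 113 in Pb (2.31 at activation, SE 0.206, adjusted p = 4.29e-07), and *Scarb1*, another scavenger receptor, from 5.97 to 18.6 and 9.48 (-0.96 from actB to Pb, SE 0.076, adjusted p = 2.06e-07). *Casp4*, which encodes the sensor of LPS in the cytosol, was at 8.37, 18.9, and 12.6 RPKM. The plasma protein gene *Lbp* and the LPS-degrading *Aoah* did not pass the filter.

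The 19 adaptors, kinases, and ligases went both ways, with 6 higher and 10 lower from nB to actB, 6 higher and 7 lower from actB to Pb, and 6 higher and 9 lower from nB to Pb. The adaptor genes split among themselves. *Tirap*, the sorting adaptor for MyD88 at TLR2 and TLR4, was at 6.71, 8.10, and 20.1 RPKM in nB, actB, and Pb with DMSO (1.28 from actB to Pb, SE 0.049, adjusted p = 3.56e-10), and *Ticam1*, which encodes TRIF, at 14.2, 22.6, and 37.0 (0.71, SE 0.056, adjusted p = 2.15e-07). *Ticam2*, which encodes the TRAM adaptor that links TLR4 to TRIF, peaked in actB at 4.39, 15.05, and 4.37 RPKM (1.72 at activation and -1.73 from actB to Pb, adjusted p = 4.50e-09 and 2.71e-09). *Pik3ap1*, the adaptor BCAP, fell from 52.4 RPKM in actB to 9.30 in Pb (-2.45, SE 0.131, adjusted p = 5.96e-09). At activation *Ikbke* was higher (1.08, adjusted p = 9.98e-05), and the kinase gene *Ikbkb* and the ligase gene *Traf3* were lower (-1.23 and -0.80, adjusted p = 1.00e-09 and 1.23e-07). With GSK343, *Map3k7* was higher in actB (0.18, adjusted p = 0.0169) and *Tbk1* lower in Pb (-0.22, adjusted p = 0.00595).

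The chaperones and proteases of the receptors also split. *Hsp90b1*, which encodes the chaperone gp96 that Toll-like receptors need for folding, was at 256, 704, and 2225 RPKM in nB, actB, and Pb with DMSO (1.66 from actB to Pb, SE 0.055, adjusted p = 1.39e-10), while *Cnpy3*, its co-chaperone for these receptors, was at 57.8, 45.2, and 10.001 (-2.15, SE 0.087, adjusted p = 5.64e-10). *Ctsl*, *Ctsb*, *Ctss*, and *Lgmn*, endosomal proteases that cut TLR9 and TLR7, were all lower in actB than in nB and higher in Pb than in actB, with *Ctsl* at 7.29, 2.64, and 9.72 RPKM (1.80 from actB to Pb, adjusted p = 3.27e-06). *Slc15a4*, an endosomal transporter needed for TLR7 and TLR9 signalling, fell from 46.4 RPKM in nB to 16.1 in actB (-1.52, adjusted p = 4.19e-09). *Rab11a*, a recycling endosome GTPase, was lower in Pb than in actB (-1.14, adjusted p = 9.16e-09), *Tmed7*, a trafficking factor of TLR4, was higher in actB than in nB (0.44, adjusted p = 3.67e-05), and *Rab7b* was at 1.16 RPKM in nB and at 0 in actB and Pb with DMSO. Of the 11 genes of this list other than *Rab7b*, 3 were higher and 6 lower from nB to actB, and 6 higher and 4 lower from actB to Pb. With GSK343, *Lgmn* and *Hsp90b1* were higher in both cell types (0.30 and 0.20 in actB, adjusted p = 0.00452 and 0.0422, and 0.24 and 0.18 in Pb, adjusted p = 0.0129 and 0.0485), *Tmed7* was lower in actB (-0.24, adjusted p = 0.0206), and *Cnpy3* was lower in Pb (-0.37, adjusted p = 0.0154).

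*Irf5*, *Irf3*, and *Irf7*, which encode interferon regulatory factors activated by these receptors, were all lower in actB than in nB. *Irf7* then rose from 10.3 RPKM in actB to 34.5 in Pb (1.82, SE 0.338, adjusted p = 3.93e-04), while *Irf5* fell from 117 RPKM in nB to 53.8 in actB and 35.5 in Pb (-0.60 from actB to Pb, adjusted p = 1.60e-06) and was lower still with GSK343 in Pb (-0.26, adjusted p = 0.0147). Among 7 negative regulators tested, 4 were lower in actB than in nB and none higher, and 5 were lower and 2 higher in Pb than in actB. *Atf3*, a repressor of TLR-induced genes, fell from 24.5 to 3.24 RPKM (-2.80, SE 0.389, adjusted p = 3.43e-05) and *Irak3*, which encodes the inhibitory kinase IRAK-M, from 17.7 to 4.89 (-1.80, SE 0.091, adjusted p = 3.68e-09), while *Tollip* was higher by 0.29 (adjusted p = 7.81e-04) and *Cyld* by 0.15 (adjusted p = 0.0280). *Sigirr*, which encodes a decoy member of the receptor family, and *Inpp5d*, the phosphatase SHIP1, were lower in actB than in nB (-0.82 and -0.79, adjusted p = 0.0106 and 1.61e-08). *Tollip* was also higher with GSK343 in Pb (0.20, adjusted p = 0.0478). In all, 4 of the 50 genes were called with GSK343 in actB, 3 higher and 1 lower, where 10.4% of all genes were called, and 7 in Pb, 3 higher and 4 lower, where 12.9% were.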

How the data were processed

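Poly(A) RNA (KAPA Stranded mRNA kit) was sequenced as 50 bp paired-end reads. The authors mapped the reads to mm9 with TopHat2, used GenomicRanges to count the reads that fell on exons, per Entrez gene, and deposited reads per 1000000 counted reads (RPM) under a name that says RPKM. Every deposited RPM column sums to 1000000. All values (100%) were whole reads within 0.1 read, so reads were recovered, and RPKM was computed here as RPM per kilobase of deposited length. The 92 rows without a symbol held at most 0.09% of a library and were left out.

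Columns nB 1 and 2 had a chi-square per degree of freedom of 0.00947 over 14410 genes (at least 3.57 in every other within-group pair) and were averaged, so 14 libraries were fitted, with 9 residual degrees of freedom. Genes with at least 1 RPKM in at least 3 of 15 columns were tested with limma 3.58.1 (R 4.3.3, eBayes with a trend) on log2(RPKM + 0.25). Tests were two-sided, with Benjamini-Hochberg adjustment over 11299 genes. The labels do not state that libraries are separate animals, so p-values measure the spread between these libraries. Deviations from group means were correlated between cultured libraries of different groups. Within numbers 1, 2, and 3, r was 0.158 to 0.502, 0.435 to 0.713, and 0.219 to 0.356, over 6 pairs each. Over 36 pairs of different numbers, r was -0.603 to 0.37, which overlaps the ranges of numbers 1 and 3. Replicate numbers were taken to pair the libraries, and the block was run as an alternative. In it, the averaged nB library counted as number 1, although its columns carry numbers 1 and 2. edgeR 4.0.16 on recovered reads (quasi-likelihood, TMM factors) called 1241 genes for GSK343 in actB and 1500 in Pb, against 1170 and 1458. Other alternatives were pseudocounts, filters, scalings, subsets of groups, and libraries left out. The members, gene lists, and motifs were chosen with earlier results of these data known. Genes outside the 10 were named as the 2 largest called changes per direction in each list and comparison, or as nearest profiles, and *Mast4*, *Acaa1a*, *Ctsb*, *Ctss*, *Lbp*, *Aoah*, and the markers were named after their values were seen. Member coordinates are 1-based, from GENCODE vM1 on mm9.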

Additional observations from a re-analysis of the deposited data

Results flagged for a closer look

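The GSK343 effect on *Cd180* differed between Pb and actB by 0.55 on the log2 scale (SE 0.075, limma adjusted p = 0.0279, interaction term). *Cd180* was higher with GSK343 in 3 of 3 numbered pairs in Pb, at 135%, 137%, and 150% of DMSO, and at 89.4%, 99.9%, and 96.5% in actB. The Pb libraries with GSK343 are the ones labelled with IL6, while the culture protocol names IL5. If the labels hold, GSK343 and the cytokine cannot be told apart here.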

How the results depend on the processing

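Among the 54 values of members other than *Cd14*, 30 were called and none of these changed sign under the alternatives run. Of 25 calls between nB, actB, and Pb, 21 were kept in every setting. The GSK343 results were less firm. The replicate block raised the genes called to 2417 in actB and 2780 in Pb and the interaction to 222, and the members called to 3 and 5. It added *Tlr2* and *Tlr7* in actB and *Tlr7* and *Myd88* in Pb, and changed no other call of a member. With the compared groups alone, 386 genes and 0 members were called in actB, and 4 genes had an interaction. Quantile normalization left 18 interactions, a *Tlr4* difference of -0.0260 in actB, and a *Myd88* interaction of -0.0074. All 15 columns as deposited gave 2 members in actB and 48 interactions. Leaving out replicate 2 of every cultured group was an alternative chosen after seeing the data. In it, 3 members were called in actB (*Ly86*, *Tlr7*, and *Tlr9*, but not *Ly96*) and 5 in Pb. There were 146 interactions, 2 of them members (*Cd180* and *Tlr9*), and the interactions of *Ly96* and *Myd88* were -0.0950 and -0.0504. The cause of these changes was not tested.

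With each library left out in turn, genes called ranged from 608 to 1363 in actB, 690 to 1304 in Pb, and 0 to 58 for the interaction, and members from 0 to 1, 1 to 3, and 0 to 1. Uncalled differences that changed sign ranged from -0.0052 to 0.14 (*Tlr4*, actB), -0.24 to 0.0168 (*Cd14*, actB), and -0.0481 to 0.20 (*Cd14*, Pb), and interactions from -0.0291 to 0.12 (*Ly96*), -0.12 to 0.0351 (*Ly86*), and -0.0617 to 0.0765 (*Myd88*). Leaving out an nB library leaves 1, which is assumed to vary like the other groups. The filter at 3 RPKM drops *Cd14*. Depth limits *Cd14* (0 to 6 reads in culture), *Tlr9* in Pb (66 to 105 reads), and *Ly96* (97 to 143 reads in nB and actB with DMSO).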
